A study of Mus musculus with 10 samples.

Results

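The cytosolic ribosomal protein genes encode the proteins of the ribosomes that translate messenger RNA in the cytoplasm. They were followed here across mouse progenitors induced from pericytes, primary oligodendrocyte progenitor cells and pericytes. Members were all array probes whose symbol is that of a ribosomal protein of the small subunit (Rps) or large subunit (Rpl), together with Rplp0, Rplp1, Rplp2 and Rpsa, leaving out the Rps6 kinases and pseudogenes. The rule took 81 of 25697 probes, for 63 of 16593 genes with a probe, and used no measured value. Of these genes, 58 had a probe that was detected well enough to be tested, among 9778 genes tested in all. The tested members were 22 genes of the small subunit, 30 of the large subunit, Rplp0 and Rplp1 of the stalk, and 4 paralogues. Paralogues here are relatives of another ribosomal protein gene, and Rpl7, the relative of Rpl7l1, had no probe used here. Rpl6, Rpl17, Rpl39l, Rplp2 and Rps23 had no probe above the detection limit on any array and are named only. A current gene table lists 84 genes under the same rule, of which 21 had no probe used here.

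A ribosome has a small subunit, which reads the messenger RNA, and a large subunit, which joins the amino acids. Each ribosome needs nearly every ribosomal protein once, and cells make these proteins at matched rates. Most of their messages begin with a run of pyrimidines, the 5′ terminal oligopyrimidine or TOP motif, through which the mTOR pathway sets their translation. A few paralogues can stand in for their parent protein in some tissues.

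The 10 arrays held 2 for each of 5 groups, all of C57BL/6 mice. Induced OPC (iOPC), titled PC2FiOPC, had been made from pericytes and kept in culture for 5 passages (p5), 15 passages (p15) or 25 passages (p25). Primary oligodendrocyte progenitor cells (OPC), which give rise to myelinating glia, are titled OPC, whereas their cell type label reads oligodendrocyte. Pericytes (PC), the contractile cells that wrap small vessels, are the cells the iOPC came from. The labels name no sort, age, clone or inducing factor for these arrays and do not say whether the 2 arrays of a group came from separate cultures, so p-values measure only the spread between these arrays. Bulk RNA was measured, and fewer cells of a type and less RNA per cell cannot be told apart.

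The levels come from a deposited table of raw signals and, beside it, from the authors' own normalized log2 values. The headings of the 2 tables disagree. Across 9403 probes that all arrays detected, PC signals correlated with PC values at a mean Pearson r of 0.961. The p15 signals correlated with the OPC values at 0.964 and with the p15 values at 0.837. The p5, p25 and OPC signals correlated best with the p25 values, at 0.885, 0.849 and 0.865, and so had no close match under any heading. Over 68 member probes alone every pair of columns correlated at 0.936 to 0.983, so the members do not separate the headings. These correlations are across probes, which are not independent replicates. Markers on the signal arrays went with this: all 6 measured OPC markers, Olig2 included, were detected on both arrays headed p15, against 5 of 6, without Olig2, on those headed OPC. Of 4 fibroblast markers, 0 were detected on the arrays headed p15 and 3 on those headed OPC. Their summed signal was 521 and 529 on the p15 arrays, from 1924 to 3649 on the p5 and p25 arrays, from 9298 to 9947 on the OPC arrays, and from 1925 to 2259 on the PC arrays. Of 7 pericyte markers, 3 were detected on the PC arrays and 1, Acta2, in each other group. The 6 OPC markers summed to 29595 and 31291 on the p15 arrays, against 1476 to 11460 on the other arrays. Summed signals for markers of other brain cells were also high on p15. The 4 astrocyte markers summed to 7300 and 7332 there, against 757 to 1237 elsewhere, with Aqp4 and Aldh1l1 detected on both arrays there alone. Gfap, of the same list, went the other way: both arrays detected it at p5, at p25 and in OPC, and not at p15. The 4 neuron markers summed to 5560 and 5695 on p15, against 787 to 1706 elsewhere. Of these, Syp and Map2 were detected on both arrays of p5, p15, p25 and OPC alike, and Map2 alone in PC. No microglial and no endothelial marker was detected on both arrays of any group. The part of these cells and of the column headings in the results below was not tested. No column was reassigned, so each comparison is given from the signal table first and from the value table second. Directions that rest on a heading other than PC depend on which table has the right headings. For the p5, p25 and OPC signals no change of headings would give a match as close as 0.961. Contrasts between the tables there may set unlike profiles side by side. A change is a difference of log2 values from one limma fit per table with its standard error (SE), and it was called at a Benjamini-Hochberg adjusted p under 0.05 over all 9778 genes.

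The promoters of some of the members described gene by gene are shown for the letters around their starts. Both genes of the pairs Rpl22 and Rpl22l1, and Rps27 and Rps27l, are included. Each line gives 60 bases around a RefSeq start site (40 bases before it and 20 after, RefSeq sequence, build GRCm38.p6). Capitals mark CTTTC or CTTCC, 2 forms that the start of a TOP message can take, on the sense strand, which reads like the message. They are marked at any position, so they do not show a TOP start. Letters among the first 40 lie before the listed start, outside a message that begins there. The capitals of Rpl22 and the first ones of Rps27 and Rps15a lie there. Rpl22 and Rps27l have 2 listed starts each.
Rpl22, chr4:152325686-152325745, plus strand: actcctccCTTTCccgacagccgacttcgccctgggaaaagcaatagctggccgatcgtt
Rpl22, chr4:152324396-152324455, plus strand: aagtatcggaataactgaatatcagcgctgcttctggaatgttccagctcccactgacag
Rpl22l1, chr3:28805468-28805527, plus strand: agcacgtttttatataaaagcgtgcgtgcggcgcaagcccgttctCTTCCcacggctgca
Rps27, chr3:90213629-90213688, minus strand: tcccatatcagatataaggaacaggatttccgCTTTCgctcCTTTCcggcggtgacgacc
Rps27l, chr9:66946046-66946105, plus strand: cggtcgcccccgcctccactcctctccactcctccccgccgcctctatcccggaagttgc
Rps27l, chr9:66946373-66946432, plus strand: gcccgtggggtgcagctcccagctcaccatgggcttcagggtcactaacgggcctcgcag
Rps15a, chr7:118116128-118116187, minus strand: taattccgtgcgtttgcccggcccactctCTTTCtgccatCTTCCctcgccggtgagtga
Rpl12, chr2:32961672-32961731, plus strand: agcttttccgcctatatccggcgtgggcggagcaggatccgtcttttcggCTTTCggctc
Rpl13a, chr7:45128726-45128785, minus strand: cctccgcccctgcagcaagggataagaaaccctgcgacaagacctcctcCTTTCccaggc
Rpl27a, chr7:109519155-109519214, plus strand: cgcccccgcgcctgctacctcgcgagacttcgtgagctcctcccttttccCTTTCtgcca
Rplp0, chr5:115559427-115559486, plus strand: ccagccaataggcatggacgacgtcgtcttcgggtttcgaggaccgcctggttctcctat

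Promoter entries matched 54 of the 63 member genes, with 65 start sites. CTTTC stood on the sense strand in 19 of these 65 windows (29.2%), against 8.11% of the 32851 windows of all 27025 genes in the table. On the opposite strand CTTTC stood in 4.62% of the members' windows and in 7.21% of all windows. CTTCC, which shares its first 3 letters with CTTTC, stood on the sense strand in 27.7% of the members' windows and in 12.8% of all. The letters CCGGAAG, a core to which factors of the ETS family bind, stood on either strand within 250 bases before to 50 after the start in 35.4% of the members' start sites and in 8.86% of all. These matches were counted at any position in the window. They describe letters and show no binding and no TOP start.

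Most members were bright and varied little. Of the 58 tested members, 37 had a mean of 12 or more over the 10 arrays, a level that 170 of all 9778 genes reached. Probe brightness also depends on the probe, so these levels do not rank the genes. The range of a member over the 10 arrays had a median of 0.83 log2 units, against 1.22 for all genes tested, and in the value table it was 0.53 against 1.86. Ranges under 1 log2 unit were found for 42 members (72.4%), against 37.9% of all genes, and in the value table for 43 (74.1%), against 17.2%. Only Rpl22 had a range over 2 log2 units in the signal table, against 2543 of all 9778 genes. The mean levels of the members had a median of 12.87 and those of all genes 7.13, so these ranges compare genes of unlike brightness. The part of brightness in the small ranges was not tested.

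The median member level was lowest on the p25 arrays in the signal table. It was 13.11 and 13.06 normalized log2 units on the p5 arrays, 12.95 and 12.92 on the p15 arrays, 12.31 and 12.43 on the p25 arrays, 12.90 and 12.90 on the OPC arrays, and 12.98 and 13.02 on the PC arrays. The p25 arrays lay below all others, and the other 4 groups lay close together. In the value table the medians were 12.82 and 12.99 for p5, 13.28 and 13.23 for p15, 13.10 and 13.20 for p25, 13.05 and 13.03 for OPC, and 13.11 and 13.21 for PC, so that p5 was lowest there. Member probes held 5.55% and 5.55% of the summed raw signal on the p5 arrays, 4.95% and 5.01% on p15, 4.13% and 4.34% on p25, 5.08% and 5.02% on OPC, and 5.37% and 5.66% on PC. The p25 arrays were also the dimmest as a whole, with mean raw signals of 299 and 268 over all probes, against 333 to 388 on the other 8 arrays. The part of this brightness in the result was not tested.

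**Figure D1:**
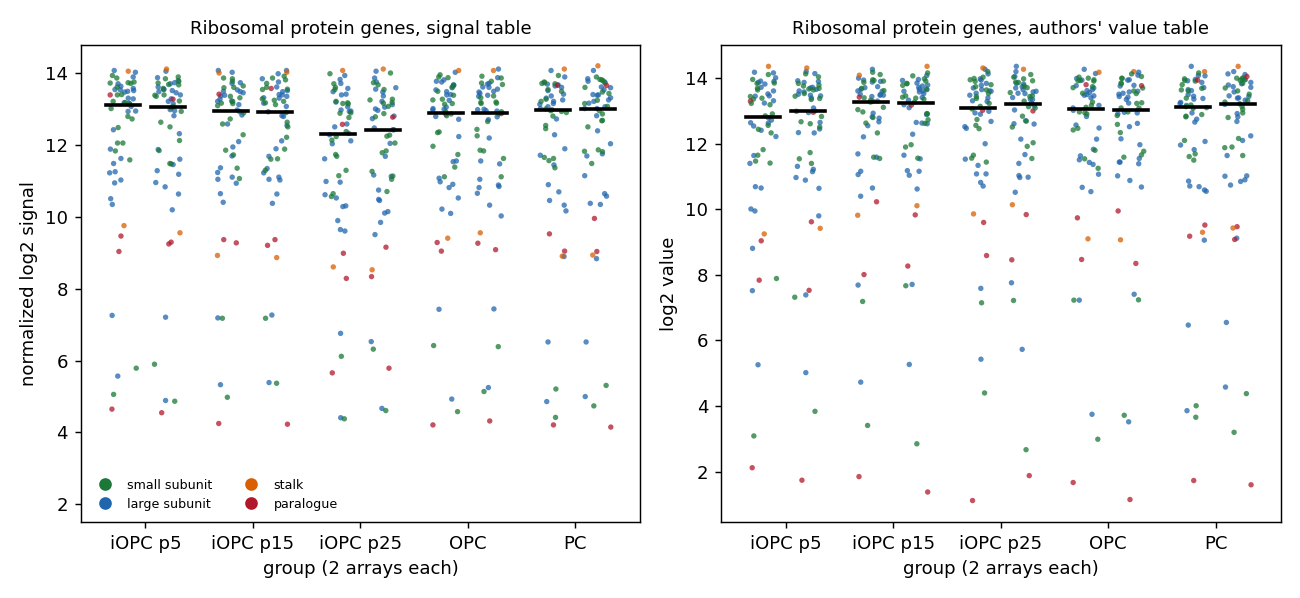
Level of each of the 58 tested ribosomal protein genes on each of the 10 arrays, on the log2 scale, in the signal table (left) and the authors' value table (right); points are genes coloured by role and bars are medians. In the signal table the medians of the p25 arrays (12.31 and 12.43) lie below those of all other arrays, and in the value table they do not.

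Against pericytes, a handful of ribosomal protein messages moved in iOPC (mean of the 3 passages) in both tables: Rpl22, Rps15a, Rpl21, Rpl13a and Rps6 rose, and Rpl22l1, Rps27l and Rpl35 fell, although median scaling of the signals gave -0.04 for Rps6. By signal, 10 of 58 members rose and 20 fell, where 42.2% of all genes were called higher and 34.1% lower, and the members' median change was -0.08 against 0.08 for all genes. The value table called 10 higher and 3 lower, where 33.0% of all genes were called higher and 26.8% lower, with medians of 0.00 and 0.08. By subunit, 3 of 22 small subunit genes rose by signal and 8 fell, and 5 of 30 large subunit genes rose and 10 fell. Without both p25 arrays the signal table called 7 lower in place of 20 (33.2% of all genes lower), with a members' median of 0.04. With each array scaled to its median it called 43 lower and 6 higher, where 38.4% and 36.6% of all genes were. That scaling put the median of all genes at -0.01 and that of the members at -0.38. Without PC replicate 1 the value table called 4 higher in place of 10. The arrays of iOPC lay wholly above PC for 5 members and wholly below for 8 (23.8% and 22.7% of all genes).

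In OPC against pericytes, Rpl21, Rpl22, Rpl13a, Rps15a and Rpl27a rose in both tables and Rpl22l1 fell. By signal, 10 members rose and 11 fell, where 35.0% of all genes were called higher and 32.8% lower, with a members' median of -0.0038 against 0.02 for all genes. The value table called 5 higher and 3 lower, where 30.6% of all genes were called higher and 25.8% lower. With median scaling the signal table called 5 higher and 28 lower, where 32.1% and 33.3% of all genes were. Leaving out OPC replicate 1, PC replicate 1, PC replicate 2 or either p25 replicate left 1 lower call in the value table, and leaving out OPC replicate 2 left 0. The comparisons of iOPC and of OPC with PC share the PC arrays.

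**Figure D2:**
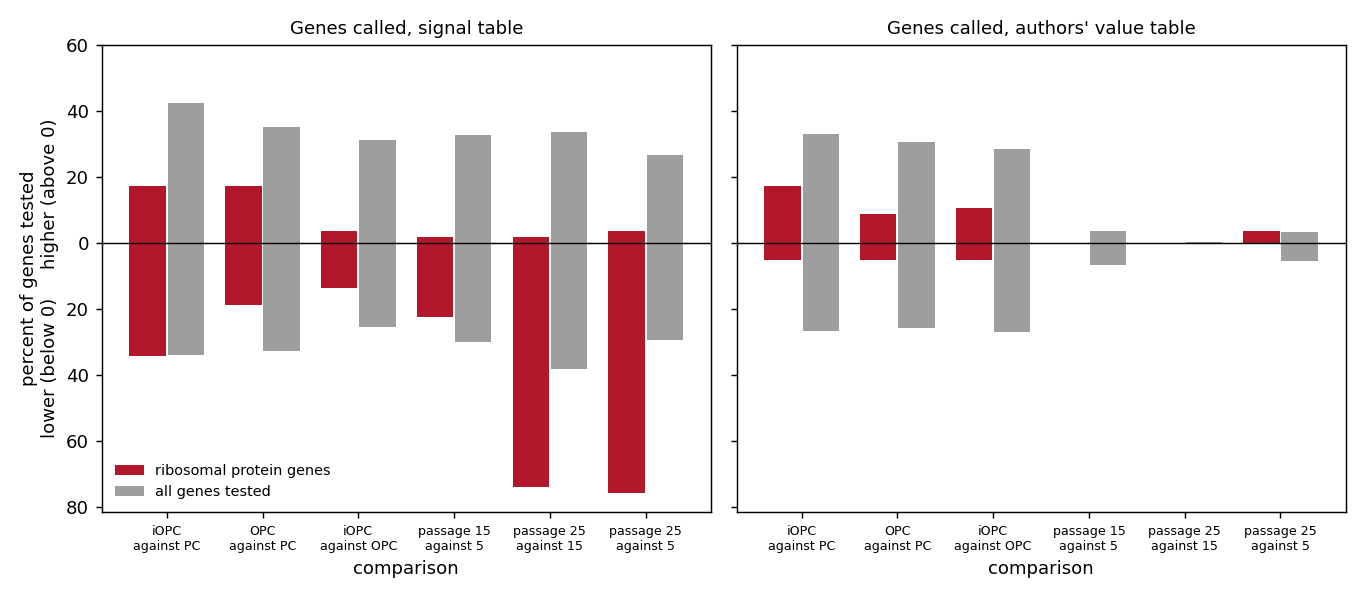
Share of genes called higher (above 0) and lower (below 0) in each comparison at an adjusted p under 0.05, for the 58 ribosomal protein genes (red) and all 9778 genes tested (grey), in the signal table (left) and the authors' value table (right). Members reach 75.9% lower at passage 25 against 5 in the signal table, where 29.4% of all genes were lower, and 0 members are lower in the value table.

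Rpl22, an RNA-binding protein of the large subunit, changed more against PC than any other member by signal, while by value Rps15a changed more. Its normalized log2 signal was 10.95 and 10.96 at p5, 11.05 and 11.11 at p15, 10.53 and 10.46 at p25, 10.82 and 10.89 in OPC, and 8.90 and 8.84 in PC. All 6 iOPC arrays and both OPC arrays lay well above the PC arrays. It was 3.93-fold higher in iOPC than in PC (log2 change 1.97, SE 0.06, limma adjusted p = 5.42e-10) and 3.96-fold higher in OPC than in PC (1.99, SE 0.07, limma adjusted p = 4.03e-09). In the value table it was 9.95 and 10.97 at p5, 11.06 and 11.16 at p15, 11.08 and 10.97 at p25, 11.43 and 11.39 in OPC, and 9.06 and 9.12 in PC. There too no iOPC or OPC column overlapped PC, and the changes were 1.77 (SE 0.24, limma adjusted p = 0.000403) for iOPC and 2.31 (SE 0.29, limma adjusted p = 0.00028) for OPC. Its change between iOPC and OPC was -0.01 (SE 0.06) in the signal table and -0.54 (SE 0.24) in the value table, and neither passed the test. Rpl22 has 1 probe, so no other probe bears on it.

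Its paralogue Rpl22l1, which can replace Rpl22 in the ribosome and is known to rise in mice that lack Rpl22, moved the other way. The signal was 9.04 and 9.25 at p5, 9.37 and 9.21 at p15, 8.29 and 8.34 at p25, 9.05 and 9.09 in OPC, and 9.53 and 9.96 in PC. Every iOPC and OPC array lay below both PC arrays. Rpl22l1 fell by 0.83 (SE 0.11, limma adjusted p = 5.15e-05) in iOPC against PC and by 0.68 (SE 0.13, limma adjusted p = 0.00115) in OPC against PC. The value table gave -1.01 (SE 0.14, limma adjusted p = 0.000453) and -0.71 (SE 0.17, limma adjusted p = 0.00832), again with no overlap with PC. Without both p25 arrays the fall in iOPC was 0.53 in the signal table, and it still passed the test. In the value table the call for Rpl22l1 in OPC was lost without OPC replicate 2 or PC replicate 1. The direction of neither gene changed under any alternative in either comparison with PC.

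Rps27l, a paralogue of Rps27 and a target of the tumour suppressor p53, was the other paralogue lower in iOPC in both tables. Its signal was 13.40 and 13.28 at p5, 13.42 and 13.58 at p15, 12.58 and 12.78 at p25, 12.86 and 12.88 in OPC, and 13.67 and 13.66 in PC. It fell by 0.49 (SE 0.08, limma adjusted p = 0.000161) in iOPC against PC, and by 0.85 (SE 0.14, limma adjusted p = 0.0011) in the value table. All iOPC arrays lay below PC in both tables, while the fall in the signal table was 0.25 without the p25 arrays and 0.80 with median scaling. OPC was lower than PC by 0.80 (SE 0.09, limma adjusted p = 2.66e-05) in the signal table, and the value table gave -0.21 (SE 0.17, limma adjusted p = 0.33). Its parent Rps27 changed by 0.03 (SE 0.06) in iOPC and 0.12 (SE 0.08) in OPC in the signal table, and by 0.06 and 0.03 in the value table, none of them called. With median scaling the Rps27 change in iOPC was -0.39.

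Rpl3l, the form of Rpl3 made in heart and skeletal muscle, was detected on the p25 signal arrays and on no other array. Its signal was 5.66 and 5.79 there, against 4.65 and 4.55 at p5, 4.25 and 4.23 at p15, 4.21 and 4.32 in OPC, and 4.21 and 4.15 in PC, where it was not well above background. At p25 it was at least 1.87-fold higher than at p5 and at least 1.91-fold higher than at p15. The value table did not show this: its values were 1.12 and 1.88 at p25, against 1.15 to 2.12 in the other columns. The parent Rpl3 was bright throughout, from 13.20 to 13.50 in the signal table. Rpl7l1, a relative of Rpl7, changed by 0.22 (SE 0.07, limma adjusted p = 0.0192) in iOPC against PC and by 0.24 (SE 0.09, limma adjusted p = 0.0401) in OPC against PC, and by 0.20 and 0.36 in the value table, which did not pass the test. Both calls were lost without either PC array and with median scaling, and the call in OPC also without either OPC array or either p15 array. The other probe of Rpl7l1, detected on all 10 arrays, gave -0.08 in iOPC and 0.31 in OPC against PC by signal. Rpl39l had a probe detected on 0 arrays.

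**Figure D3:**
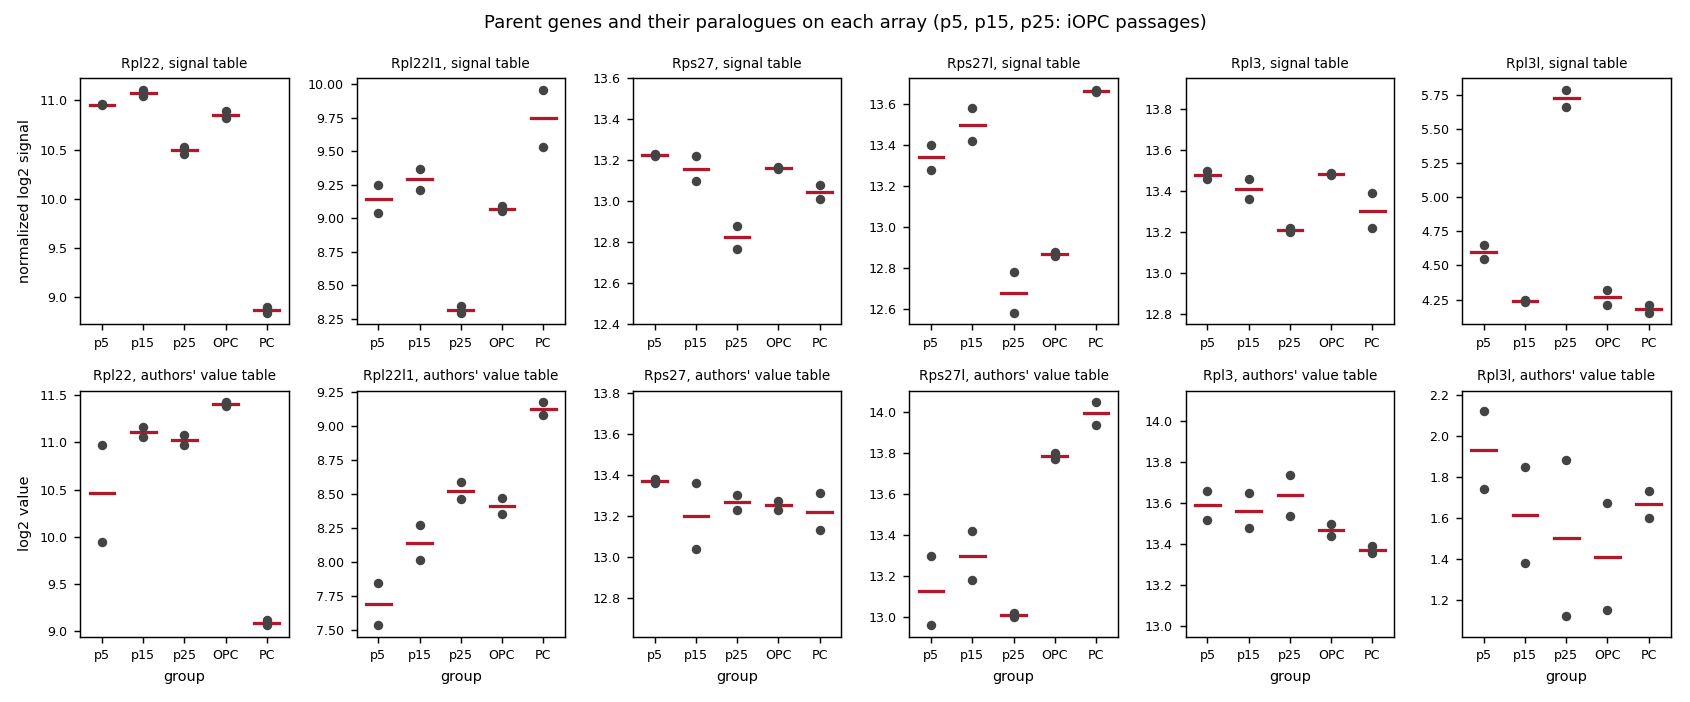
Log2 level of 3 parent genes and their paralogues on each array in the signal table (top) and the authors' value table (bottom), with points for the 2 arrays of a group and bars for their mean; each panel has its own axis. Rpl22 is higher and Rpl22l1 lower in every iOPC and OPC array than in PC in both tables, and Rpl3l is raised on the p25 arrays of the signal table alone (5.66 and 5.79).

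Rps15a, a protein of the small subunit, was the other large rise, on a dim probe. Its signal was 5.79 and 5.90 at p5, 7.18 and 7.18 at p15, 6.12 and 6.32 at p25, 6.42 and 6.39 in OPC, and 5.21 and 5.31 in PC. It was 2.23-fold higher in iOPC than in PC (log2 change 1.16, SE 0.07, limma adjusted p = 1.51e-07) and 2.22-fold higher in OPC than in PC (1.15, SE 0.09, limma adjusted p = 1.15e-06). In the value table the same probe ran from 7.15 to 7.89 in iOPC, was 7.23 and 7.24 in OPC and was 4.01 and 4.38 in PC. No iOPC or OPC column came near PC there, and the changes were 3.21 (SE 0.20, limma adjusted p = 5.85e-06) and 3.04 (SE 0.25, limma adjusted p = 2.35e-05). The tables thus share the direction and differ in size. All 10 arrays detected the probe, but its raw signals in PC were only 126 and 125. The undetected probe of Rpl17 read 106 and 104 there. Raw signals of Rps15a were 144 and 149 at p5 and 133 and 131 at p25. Its normalized signal was nevertheless called higher at p25 than at p5. These sizes thus rest on signals near background. Ribosomal protein genes have many processed pseudogenes with near-identical sequence, and whether a probe also binds such copies was not tested.

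Rpl21 and Rpl13a of the large subunit were also higher than in PC in both tables and both comparisons. For Rpl21 the changes in iOPC were 0.52 (SE 0.07, limma adjusted p = 8.68e-05) and 1.10 (SE 0.12, limma adjusted p = 0.000115), and those in OPC were 0.91 and 0.81. Its signal ran from 6.53 to 7.27 on the iOPC arrays, was 7.43 and 7.44 on the OPC arrays, and was 6.52 on both PC arrays. For Rpl13a, which in human cells can leave the ribosome to silence inflammatory messages, the changes in iOPC were 0.49 (SE 0.08, limma adjusted p = 0.000271) and 0.78 (SE 0.14, limma adjusted p = 0.00201), and those in OPC were 0.60 and 0.71. Its p25 signals (9.90 and 10.11) lay below PC (10.17 and 10.35), whereas p5 (11.23 and 11.29) and p15 (10.94 and 11.03) lay above. Without the p25 arrays the rise of Rpl13a in iOPC was 0.86 by signal, and its call in OPC in the value table was lost without OPC replicate 2 or PC replicate 1.

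The further calls that held in both tables were smaller. Rps6, the small subunit protein that the S6 kinases phosphorylate, changed in iOPC against PC by 0.30 (SE 0.07) and 0.63 (SE 0.18), although median scaling of the signals gave -0.04, and the value table lost the call without either PC array. Rpl35, which lies at the exit of the nascent chain, changed by -0.27 (SE 0.06) and -0.40 (SE 0.13). Without both p25 arrays neither table called Rpl35, and the value table also lost it without any 1 array of OPC, PC or p25. Rpl27a was higher in OPC than in PC by 0.27 (SE 0.09, limma adjusted p = 0.0205) and 0.73 (SE 0.16, limma adjusted p = 0.00463), with the signal call lost under median scaling and without OPC replicate 1 or PC replicate 2. Its other, dimmer probe, detected on all 10 arrays, went the other way by signal (-0.22). By value that probe read 5.09 and 5.04 in OPC and 4.19 and 4.67 in PC. In all, both tables called 5 of 58 members higher and 3 lower in iOPC, against 2418 and 2036 of all 9778 genes. In OPC both tables called 5 members higher and 1 lower, against 1836 and 1695 of all genes. For 2 members the calls in iOPC were opposite, as they were for 483 of all genes: Rpl24 gave -0.52 and 0.70, and Rps7 gave -0.18 and 0.42. Without PC replicate 1 the value table did not call Rpl24, and without either PC array neither table called Rps7. Rps15, a small subunit protein near the decoding site, changed by -0.58 in iOPC and -0.64 in OPC by signal, both called, and by -0.31 and -0.53 in the value table, neither called.

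Several other members were lower against PC by signal and not called by value. Rps10, of the small subunit, was 12.49 and 12.51 at p5, 12.29 and 12.22 at p15, 11.69 and 11.79 at p25, 12.35 and 12.26 in OPC, and 12.55 and 12.69 in PC. All other arrays lay below PC, with changes of -0.46 (SE 0.07, limma adjusted p = 0.000121) in iOPC and -0.32 (SE 0.08, limma adjusted p = 0.00601) in OPC, where the value table gave -0.11 and -0.36. Rpl19, of the large subunit, fell by 0.44 in iOPC and by 0.51 in OPC, and the value table gave -0.21 and -0.26. Rps2, of the small subunit, changed by -0.34 (SE 0.08) in iOPC, a call lost without both p25 arrays, and by -0.50 (SE 0.10) in OPC.

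**Figure D4:**
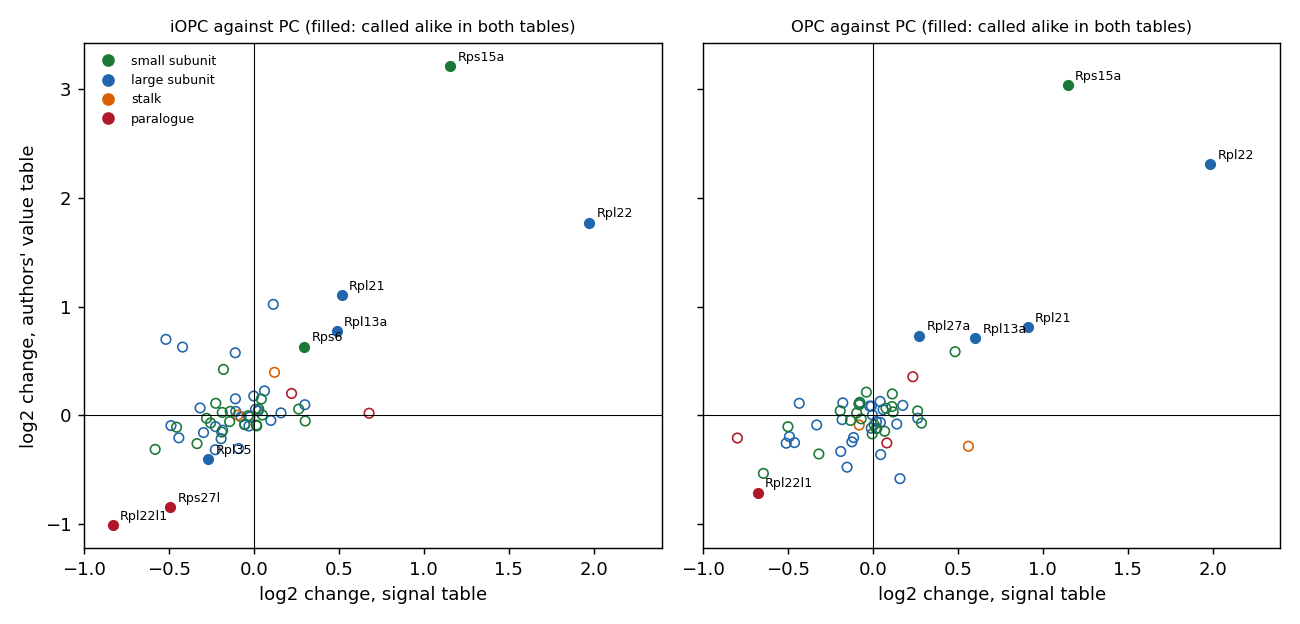
Log2 change of each ribosomal protein gene against PC in the signal table (horizontal) and the authors' value table (vertical), for iOPC (left) and OPC (right); filled points were called in the same direction in both tables. Rpl22 and Rps15a stand apart from the others at the upper right, and Rpl22l1 lies at the lower left in both panels.

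Between iOPC and OPC the tables shared no call among the members, while over all 9778 genes they shared 521 higher and 425 lower calls. The signal table called 2 of 58 higher and 8 lower in iOPC, where 31.1% of all genes were higher and 25.7% lower, and the value table called 6 higher and 3 lower, where 28.4% and 26.9% were. Of these, 3 were opposite, as were the calls for 2538 of all 9778 genes. Rplp0, the protein that anchors the stalk on which elongation factors land, was -0.44 (SE 0.07) and 0.68 (SE 0.14), Rpl12 was -0.34 (SE 0.07) and 0.38 (SE 0.14), and Rps27l was 0.30 (SE 0.08) and -0.64 (SE 0.14). The value table lost its call for Rpl12 without any 1 array of OPC or PC, p15 replicate 1 or either p25 array, and for Rps27l without OPC replicate 1. These counts moved with single arrays. The 8 lower calls of the signal table became 3 without OPC replicate 1 or OPC replicate 2, 4 without p15 replicate 1, p15 replicate 2 or p25 replicate 1, and 5 without p5 replicate 1. The 6 higher calls of the value table became 3 without OPC replicate 1, OPC replicate 2 or p25 replicate 2, and 10 without p5 replicate 1. Its 3 lower calls became 1 without OPC replicate 1 and 6 without p5 replicate 1. Leaving out both p25 arrays gave 13 higher and 1 lower in the signal table, where 32.5% and 27.4% of all genes were.

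Across passages, the signal table showed a broad fall of ribosomal protein messages at p25, which the value table did not. Against p5, 44 of 58 members fell at p25 and 2 rose, where 29.4% of all genes fell and 26.4% rose, with a members' median change of -0.56 against -0.02 for all genes. Against p15, 43 fell and 1 rose, where 38.3% of all genes fell and 33.4% rose, with medians of -0.48 and -0.04. Both p25 arrays lay below both p5 arrays for 49 members and above for 3 (40.1% and 36.2% of all genes). With median scaling, which moved the median of all genes to -0.19, the members' median at p25 against p5 was -0.75, with 47 lower and 1 higher. The split of all genes then was 16.7% higher and 41.3% lower. Leaving out any 1 array left 36 to 44 members lower than at p5.

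By value, 0 members were lower and 2 higher at p25 against p5, where 5.55% of all genes were lower and 3.35% higher, with medians of 0.12 and -0.03. At an unadjusted p under 0.05, 8 of the 58 members passed limma's test there, as did 2564 of all 9778 genes. Against p15 the value table called 0 members in either direction, where 0.112% of all genes were higher and 0.0102% lower. In limma's test there, 0 members and 1043 of all 9778 genes passed at an unadjusted p under 0.05. The 2 higher calls of the value table against p5 were Rpl22l1 (0.84, SE 0.17) and Rpl4 (0.76, SE 0.18). They were opposite to the signal table, which gave -0.83 (SE 0.13) and -0.99 (SE 0.08), as were the calls for 319 of all 9778 genes. Those 2 calls became 0 without any 1 array of OPC, PC or p25, 1 without either p15 array, and 8 without p5 replicate 2. Standard errors of members ran from 0.06 to 0.21 in the signal table and from 0.11 to 0.62 in the value table. The signals headed p5 and p25 had no close match among the value columns (highest mean r 0.885 and 0.849). The tables may therefore compare unlike profiles here.

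The fall at p25 took in both subunits. Against p5 by signal, 25 of 30 large subunit genes fell, with a median of -0.58. Of 22 small subunit genes 15 fell and 1 rose, with a median of -0.55 (29.4% of all genes fell and 26.4% rose). Rpl13a fell by 1.25 (SE 0.10, limma adjusted p = 2.31e-06), to 9.90 and 10.11 at p25 against 11.23 and 11.29 at p5. Rpl12, whose protein sits at the base of the stalk, fell by 1.12 (SE 0.08, limma adjusted p = 1.48e-06), to 12.04 and 12.05 against 13.17 and 13.15. Rplp0 fell by 1.09 (SE 0.09, limma adjusted p = 3.38e-06), to 8.61 and 8.53 against 9.76 and 9.56. In each of these genes the p25 arrays were the lowest of all 10. Rpl4 and Rpl27a of the large subunit fell by 1.06 (SE 0.08) and 1.13 (SE 0.09) against p15, the largest falls of members in that comparison by signal. For Rpl27a the p25 signals were 10.31 and 10.15, against 11.26 and 11.19 at p5. Against p5 the value table gave 0.15, 0.06, 0.67 and 0.37 for Rpl13a, Rpl12, Rplp0 and Rpl27a, none of them called. Against p15 its values for Rpl27a were 11.08 and 10.98 at p25 and 11.16 and 11.18 at p15. For Rpl4 they were 10.82 and 10.52 at p25 and 10.40 and 10.62 at p15, and neither gene was called there.

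The size of the change at p25 against p5 differed with brightness in the signal table. Of 22 members whose mean lay within 1 log2 unit of the highest normalized value, 14.21, 11 fell, with a median of -0.19. Of all 36 genes at that level, members included, 13 fell (36.1%), with a median of -0.11. Over all levels 29.4% of all genes fell and 26.4% rose. All 15 members with a mean from 12 up to that limit fell, with a median of -0.72, and of 21 below 12, 18 fell and 2 rose, with a median of -0.69. Rplp1, a protein of the stalk, was 14.08 and 14.12 at p25 against 14.06 and 14.12 at p5. On the p25 arrays 13 and 15 members lay within 1 log2 unit of the array's highest value, against 25 and 27 on the p5 arrays. Among all 170 genes with a mean of 12 or more, members included, 42.9% fell, while 26 of the 37 members there fell. Whether the top of the signal range limits what these probes can show was not tested.

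**Figure D5:**
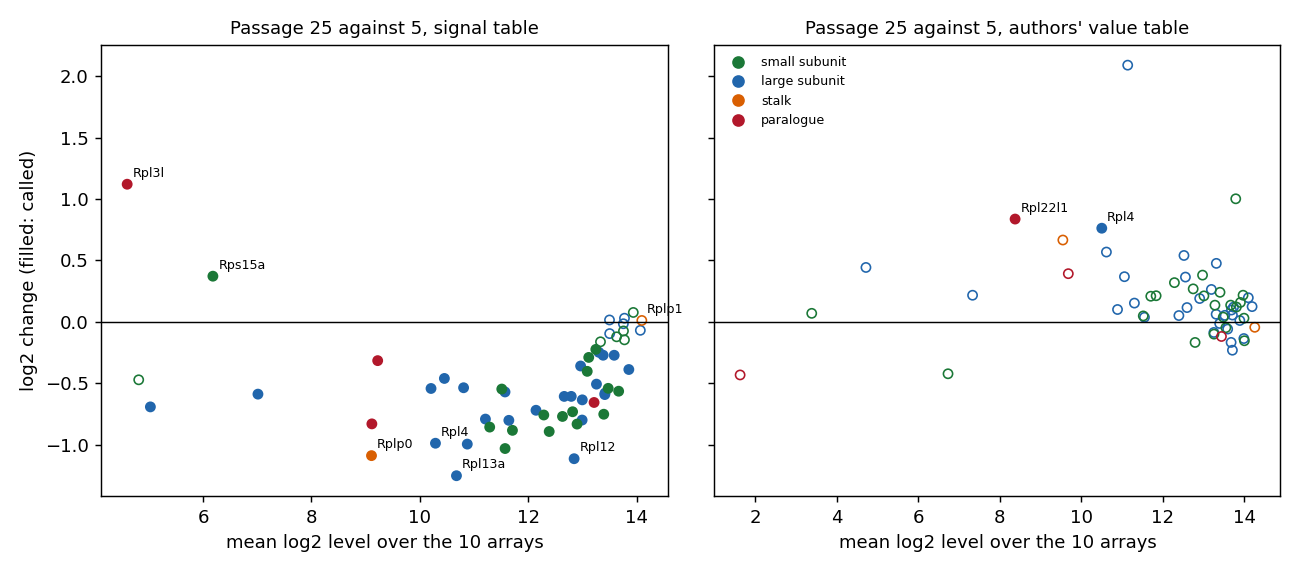
Log2 change at passage 25 against passage 5 of each ribosomal protein gene against its mean log2 level over the 10 arrays, in the signal table (left) and the authors' value table (right); filled points were called, colours give the role. In the signal table most members lie below 0 and the brightest lie near it, Rpl3l and Rps15a lie above, and in the value table the 2 called members, Rpl22l1 and Rpl4, lie above 0.

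At p15 against p5 fewer members moved. By signal, 1 was called higher and 13 lower, where 32.6% of all genes were higher and 30.2% lower, with medians of -0.07 and 0.02. Rps15a rose by 1.33 (SE 0.09, limma adjusted p = 3.37e-07) and Rplp0 fell by 0.76 (SE 0.09, limma adjusted p = 3.36e-05), to 8.93 and 8.87 at p15 against 9.76 and 9.56 at p5. The other probe of Rplp0 changed by 0.00 (SE 0.08). The count of lower calls was 4 without p15 replicate 1 or p5 replicate 1, 7 without p15 replicate 2 or p5 replicate 2, and 5 with median scaling. Without p5 replicate 1 there were 2 higher calls. The value table called 0 members, where 3.65% of all genes were higher and 6.67% lower, with a members' median of 0.15. There 10 of the 58 members passed limma's test at an unadjusted p under 0.05, as did 2931 of all 9778 genes. Without p5 replicate 2 the value table called 9 members higher, and without p5 replicate 1 it called 1. In that table p5 was the group whose replicates were least alike (r = 0.962 over all genes tested, against 0.988 to 0.994 in the others).

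Probes of 1 gene could disagree. Of 63 genes 15 had more than 1 probe. Rpl23, of the large subunit, was the only gene with probes called in opposite directions by signal: at p25 against p15 one gave -0.81 (SE 0.11), another gave 0.29 (SE 0.08), and the brightest gave 0.10 (SE 0.08), not called. The value table called no probe of Rpl23 there. Rpl38, of the large subunit, had a probe that fell by 0.81 (SE 0.09) in iOPC against PC and by 1.35 (SE 0.11) in OPC against PC, while its brightest probe changed by 0.10 (SE 0.07) and 0.04 (SE 0.09). Both probes were detected on all 10 arrays. For Rpl29 the other probe gave -1.10 (SE 0.08) in iOPC against PC and the brightest gave -0.11 (SE 0.07). Rps24, which is alternatively spliced in mammals, had a probe that fell by 1.39 (SE 0.09) at p25 against p5, while its brightest probe gave -0.07 (SE 0.08). For Rps19 the probe used gave -0.14 (SE 0.07) in iOPC against PC and the other, detected on 6 arrays, gave -0.94 (SE 0.13). The brightest probe was used for every gene, and with the mean of a gene's probes Rpl38 changed by -0.36 in iOPC against PC.

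Rpsa, the laminin-binding protein of the small subunit, and Rpl14 were dim. Rpsa was detected on 5 arrays, at a highest signal of 5.37, and Rpl14 on 7, at a highest signal of 5.57. At p25 both were not well above background on either array, while both p15 arrays detected them. Rpl14 was at least 1.35-fold lower at p25 than at p15, and Rpsa at least 1.18-fold lower. In the value table Rpl14 rose in iOPC against OPC (3.04-fold, limma adjusted p = 0.000761), where the signal table gave -0.05 (SE 0.16).

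Other TOP messages fell at p25 by signal and were not called by value. Of 16 tested TOP messages that code for no ribosomal protein, 15 fell and 0 rose at p25 against p5 by signal (29.4% and 26.4% of all genes), with a median of -0.78. The value table called 0 (5.55% of all genes lower and 3.35% higher), with a median of 0.33. There 5 of the 16 passed limma's test at an unadjusted p under 0.05, as did 2564 of all 9778 genes. Pabpc1, which coats the poly(A) tail, fell by 1.17 (SE 0.08, limma adjusted p = 6.45e-07), to 11.35 and 11.25 at p25 against 12.51 and 12.45 at p5. Eef1a1, which brings transfer RNA to the ribosome, fell by 1.07 (SE 0.18, limma adjusted p = 0.000568), and Npm1, a nucleolar chaperone, fell by 0.63 (SE 0.10). Against PC, 2 of these 16 rose and 7 fell in iOPC by signal (42.2% and 34.1% of all genes), and 1 rose and 4 fell by value (33.0% and 26.8%). Tpt1, a growth-linked TOP message, fell in iOPC against PC by 0.88 (SE 0.07) by signal and by 0.73 (SE 0.20) by value, a call that the value table lost without either PC array. Of 13 elongation and termination factors, 8 fell and 0 rose at p25 against p5 by signal, with a median of -0.47, and of 29 initiation factors 16 fell and 2 rose, with a median of -0.26. The value table did not show this: it called 0 of the 13, with 3 at an unadjusted p under 0.05 in limma's test and a median of 0.21. It called 1 of the 29 higher and 0 lower, with 4 at an unadjusted p under 0.05 and a median of 0.19. Of all 9778 genes, 2564 passed at that unadjusted p. Some genes stand on more than 1 of these lists. In the same comparison Fau and Rpl36al, which also code for ribosomal proteins but lie outside the symbol rule, fell by 0.50 and 0.34 by signal, while by value they gave 0.37 and -0.07, neither called.

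Of 47 tested genes of ribosome biogenesis, 34 fell and 3 rose in iOPC against PC by signal (34.1% and 42.2% of all genes), with a median of -0.37, and by value 23 fell and 5 rose (26.8% and 33.0% of all genes), with a median of -0.46. In OPC against PC 24 fell and 5 rose by signal (32.8% and 35.0% of all genes), and 14 fell and 1 rose by value (25.8% and 30.6%). At p25 against p5, 17 fell and 10 rose by signal (29.4% and 26.4% of all genes), with a median of -0.10, whereas by value 1 fell and 6 rose (5.55% and 3.35%), with a median of 0.21. Nucleolin (Ncl), which binds ribosomal RNA precursors, rose by 0.30 (SE 0.08) at p25 against p5, a call lost with median scaling and without p5 replicate 2, and fibrillarin (Fbl), which methylates ribosomal RNA, fell by 0.79 (SE 0.08), while the value table gave 0.42 and 0.61, not called. Of 9 genes of RNA polymerase I, which transcribes ribosomal RNA, 2 rose and 4 fell at p25 against p5 by signal (26.4% and 29.4% of all genes), and 2 rose and 3 fell in iOPC against PC (42.2% and 34.1%). By value 0 were called at p25 against p5 (5.55% of all genes lower and 3.35% higher). There 3 of the 9 passed limma's test at an unadjusted p under 0.05, as did 2564 of all 9778 genes. In iOPC against PC 3 of the 9 rose and 1 fell by value (33.0% and 26.8% of all genes). Of 15 tested regulators of ribosome synthesis 7 rose and 3 fell in iOPC against PC by signal (42.2% and 34.1% of all genes), and 4 rose and 6 fell by value (33.0% and 26.8%). Myc, a transcription factor that drives ribosome synthesis, was higher in OPC than in PC by 0.91 (SE 0.13, limma adjusted p = 0.000103) in the signal table, while the value table gave -0.45 (SE 0.51), not called.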

How the data were processed

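RNA of 10 samples, 2 per group, was measured on Illumina bead arrays; per the labels' protocols total RNA was converted to biotin-labelled cRNA, and a kit with another round of amplification was used for sorted transplanted cells, without naming arrays. Per the submitters' processing notes the tools were BeadStudio 3.2, lumi and RMA, whose roles are not stated. The deposited signals are intensity values without normalization, per the file headers. A detection p-value stands beside each deposited signal, per the file headers. The authors' value table holds deposited log2 values whose background correction is not given in the sources used here.

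Signals were processed with limma 3.58.1 under R 4.3.3, by neqc (offset 16, negative controls inferred from the detection p-values) and both tables were fitted alike with lmFit and eBayes, a mean per group over all 10 arrays and 5 residual degrees of freedom. Of all probes, 14539 had a detection p-value below 0.01 on 2 or more arrays and were kept, and the brightest probe stood for each of 9778 genes. Tests were two-sided with Benjamini-Hochberg adjustment over those genes, and the fit was tested on simulated data. An at-least fold sets the detected group against the higher of the dim probe's own level and the lowest detected level of each array. The number of arrays limits the precision. Members and lists were chosen with earlier results of these data known. Genes named were paralogues and their parents, up to 5 members in each direction with the largest change among called ones whose arrays did not overlap in either table (up to 3 between passages), the stalk proteins, Rpsa, Rps6, fixed genes of the lists, and up to 5 members whose probes disagreed most. Undetected members were named besides. Alternatives were other background corrections, scalings, filters, probe rules, a variance trend, the replicate number as a block, each array or passage left out; leaving out p5 or p25 and cyclic loess were chosen after seeing the data. Figures used matplotlib 3.10.9.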

Additional observations from a re-analysis of the deposited data

How the results depend on the processing

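Counts of called members were recomputed under each alternative. Leaving out 1 array at a time gave, in the signal table, 2 to 3 higher and 3 to 8 lower members for iOPC against OPC, 7 to 10 and 14 to 20 for iOPC against PC, 7 to 10 and 10 to 11 for OPC against PC, 1 to 2 and 4 to 14 for p15 against p5, 1 and 35 to 43 for p25 against p15, and 2 and 36 to 44 for p25 against p5. The value table gave 3 to 10 and 1 to 6, 4 to 11 and 2 to 4, 4 to 6 and 0 to 4, 0 to 9 and 0, 0 and 0, and 0 to 8 and 0 in the same order. For iOPC against OPC, higher calls by signal were 1 with detection on all 10 arrays and without p15. They were 4 with no background correction, normexp or a variance trend, 13 without p25 (32.5% of all genes) and 6 in the value table. Lower calls were 5 with every probe on its own and 13 with no background correction or a variance trend. They were 1 without p25 (27.4% of all genes), 18 without p5 (27.5%) and 3 in the value table. By value, higher calls were 3 with no filter and without p15 and 12 without p5, and lower calls were 1 with the mean of probes and 5 with a variance trend. For iOPC against PC, median scaling gave 6 higher and 43 lower (36.6% and 38.4% of all genes), and leaving out p5 gave 6 higher (41.3%). Leaving out p25 gave 7 lower (33.2%), and the value table gave 3 lower (26.8%). By value, lower calls were 6 with a variance trend and 5 without p15. For OPC against PC, median scaling gave 5 higher and 28 lower (32.1% and 33.3% of all genes) and the value table gave 5 and 3. By value, lower calls were 1 with every probe on its own, no filter or no p25 and 6 with a variance trend (26.9% of all genes). For p15 against p5, median scaling gave 5 lower and the value table gave 0 and 0, and by value a variance trend gave 8 higher and 1 lower and detection on all 10 arrays 5 higher. For p25 against p15, higher calls were 5 with cyclic loess and 0 with detection on all 10 arrays, and the value table gave 0 and 0. For p25 against p5, higher calls were 1 with detection on all 10 arrays and with median scaling, lower calls were 0 in the value table, and by value higher calls were 1 with every probe on its own and without p15, 0 with no filter and 6 with a variance trend.

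Without both p25 arrays the members' median by signal turned to 0.04 for iOPC against PC and 0.08 for iOPC against OPC, and with cyclic loess it turned to 0.04 for OPC against PC. Cyclic loess also turned the median of all genes at p25 to 0.08 against p5 and 0.08 against p15, and other medians that turned lay nearer to 0. Signs turned for these named genes, called under at least 1 of the settings compared, and the causes were not tested. Median scaling gave, for iOPC against PC, -0.14 for Rpl23, -0.28 for Rpl3, -0.30 for Rpl39, -0.39 for Rps27 and -0.043 for Rps6, and for OPC against PC -0.013 for Rpl23. Without p25, iOPC against PC gave 0.16 for Pabpc1, 0.16 for Rpl29, 0.25 for Rpl4 and 0.041 for Rps7, and iOPC against OPC gave 0.26 for Rpl13a, 0.33 for Rpl4 and 0.071 for Rps6. The mean of probes gave -0.36, -0.65 and -0.23 for Rpl38 in iOPC against PC, OPC against PC and p25 against p5, 0.49 for Eef1a2 in p15 against p5, and by value -0.0085 and -0.54 for Rpl29 in iOPC and OPC against PC and 0.41 for Rps24 in iOPC against OPC. Rplp0 gave -0.19 in iOPC against PC without p5, Rplp1 0.15 with cyclic loess, and Rps15a -0.38 in iOPC against OPC without p15.

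Replicate numbers did not pair the samples: differences between replicates correlated at -0.05 to 0.13 over 10 pairs of groups. With the replicate number as a block, p25 against p5 gave 2 higher and 44 lower members by signal (26.2% and 29.24% of all genes). In the same order, iOPC against PC gave 9 and 20 (41.98% and 33.98%), and OPC against PC 9 and 10 (34.87% and 32.71%). For iOPC against OPC the counts were 2 and 6 (31.08% and 25.47%). They were 1 and 11 for p15 against p5 (32.52% and 29.99%), and 1 and 42 for p25 against p15 (33.34% and 38.26%).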

Other observations

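Mitochondrial ribosomal proteins, which build the separate ribosomes of mitochondria, gave other counts than the cytosolic ones in some comparisons. At p25 against p15, however, most genes of both sets fell by signal. Of 71 tested genes, 43 rose and 1 fell by signal in iOPC against OPC (31.1% and 25.7% of all genes), with a median change of 0.25, and the value table called 13 higher and 12 lower (28.4% and 26.9%), with a median of 0.02. In OPC against PC 5 rose and 44 fell by signal (35.0% and 32.8% of all genes), with a median of -0.35, while by value 9 rose and 6 fell (30.6% and 25.8%), with a median of 0.08. In iOPC against PC 14 rose and 34 fell by signal (42.2% and 34.1% of all genes), while by value 19 rose and 11 fell (33.0% and 26.8%). At p15 against p5, 34 rose and 8 fell by signal (32.6% and 30.2% of all genes), while by value 4 rose and 0 fell (3.65% and 6.67%). By value 32 of the 71 passed limma's test there at an unadjusted p under 0.05, as did 2931 of all 9778 genes. At p25 against p15, 7 rose and 43 fell by signal (33.4% and 38.3% of all genes). The value table called 0 of them there (0.112% of all genes higher and 0.0102% lower). In limma's test 2 of the 71 and 1043 of all 9778 genes passed at an unadjusted p under 0.05.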
